A study of Oryza sativa with 4 samples.

Results

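The comparison described here set the transcriptome of chilled 93-11 seedlings against that of chilled Nipponbare seedlings, and it covers the genes with at least 1 RPKM (reads scaled by gene length and library size) in either of those 2 libraries. That rule kept 19086 of the 55985 genes listed. Nipponbare is a cultivar of Oryza sativa ssp. japonica and 93-11 a cultivar of ssp. indica. Seedlings of both were 15 days old when they were moved from a warm greenhouse to 4 °C for 33 h, and the untreated libraries, 1 for each cultivar, came from seedlings that were not chilled. Each library was made from mRNA of the pooled aerial parts of seedlings. There was 1 library per cultivar and treatment, so the chilled pair has no replicate check and carries no p-value.

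Rice originates from warm regions, and japonica cultivars as a group tolerate chilling better than indica cultivars. In the cold response of grasses, calcium signals and protein kinases act on transcription factors such as the DREB1 family (also called CBF), which bind cold-responsive promoters and switch on genes for protective proteins and compatible solutes. Chilling of leaves in the light also brings oxidative stress, a halt in growth and lower expression of photosynthesis genes.

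The deposited RPKM values were turned back into whole reads, between 12390386 and 16295015 per library. Levels below are RPKM scaled by the trimmed mean of M values (TMM), and ratios are 93-11 over Nipponbare on the log2 scale. A gene is called higher or lower by size where the whole 95% exact (Clopper-Pearson) interval of its ratio lies beyond 2-fold. These intervals cover counting error and not the spread between plants or pools. Of the leaf markers RCA, CAB1R and CAB2R, the last 2 given with their list below, RCA (Rubisco activase) had 3319 RPKM in chilled Nipponbare and 2861 RPKM in chilled 93-11. The 3 meristem marker genes summed to between 0.0933 and 0.342 RPKM. The 3 root markers summed to 1.53 RPKM in chilled Nipponbare, 6.4 in chilled 93-11, 6.12 in untreated Nipponbare and 8.34 in untreated 93-11. Among the root markers the silicon channel gene LSI1 was higher by size in chilled 93-11, with 100 reads against 22, and the part of root tissue in the results below was not tested.

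Of the 19086 genes, 1496 were higher (7.84%) and 1676 were lower (8.78%) in chilled 93-11 than in chilled Nipponbare. The median log2 ratio of all 19086 was 0.05, and 53.0% of them differed by less than 1.5-fold. The lower calls reached further: 339 genes were lower with the whole interval beyond 16-fold, against 101 that were higher. Calls took 13.9% of the 14055 genes with at least 100 reads over the chilled libraries and 24.2% of the less read ones. A gene could pass the 1 RPKM rule through 1 library alone, as 1985 did in Nipponbare and 1650 in 93-11. That rule therefore favours genes that differ among the less read ones, and the 2 shares are no result about weakly read genes. In pooled tissue a smaller number of cells of a type and less RNA per cell cannot be told apart. With all libraries scaled to the reference genes ACT1, EF1A and GAPC, the median ratio moved up by 0.21 and the split became 2012 higher and 1410 lower, so that higher calls made up 58.8% of calls in place of 47.2%.

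**Figure D1:**
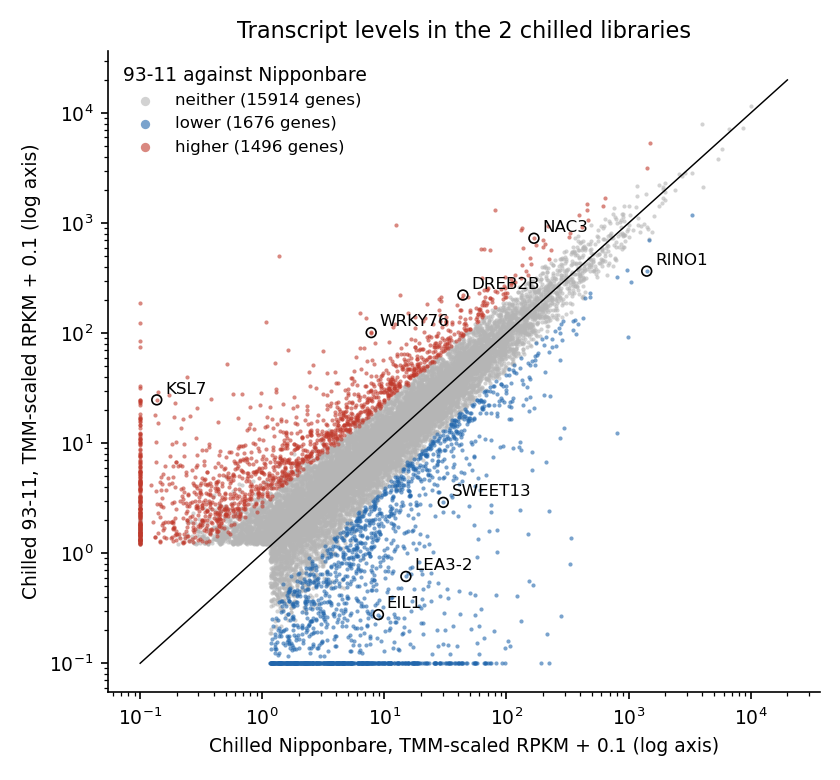
Each point is 1 of the 19086 genes, with its TMM-scaled RPKM plus 0.1 in chilled Nipponbare on the horizontal and in chilled 93-11 on the vertical log axis; red and blue mark genes higher or lower by size, grey the rest, and the line equal levels. The points along the lower edge are genes with no read in chilled 93-11, and they outnumber those along the left edge, which have no read in chilled Nipponbare.

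Names were given to genes whose published symbol matched a RefSeq entry at the matching place on the same chromosome. Of 353 genes so named, 280 passed the 1 RPKM rule; 28 of them were higher (10%, against 7.84% over all genes) and 22 lower (7.86%, against 8.78%). The named genes are taken below by role.

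The DREB regulators lay on the 93-11 side. Of 10 members, 7 passed and 6 were higher, none lower, with a median log2 ratio of 2.34 against 0.05 over all genes. DREB1B, a cold-induced activator, had 6.36 RPKM in chilled Nipponbare and 46.8 in chilled 93-11, against 0.501 and 0.811 in the untreated libraries. Its ratio was 2.87 (95% interval 2.54 to 3.24). DREB1A, a related activator in the same cluster of genes, had 10.5 and 34.5 RPKM in the chilled libraries and 0.95 and 0.865 in the untreated ones. Both genes were thus highest in chilled 93-11 and near 1 RPKM or below without chilling.

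DREB1G had 21 reads in chilled Nipponbare and 191 in chilled 93-11, a log2 ratio of 3.26, with 10 and 9 reads in untreated Nipponbare and 93-11. DREB1C had 3.72 RPKM in chilled Nipponbare and 10.7 in chilled 93-11, while untreated Nipponbare had 1.18 and untreated 93-11 had 0.303. The order of the cultivars was therefore opposite in the 2 conditions for DREB1C. DREB1H was called on 26 reads against 3. DREB2B, a factor of the drought and heat branch, had 43.9 and 222 RPKM in the chilled libraries of Nipponbare and 93-11, and 25.8 and 32.9 RPKM without chilling. Its relative DREB2A differed little, with 17 and 18 RPKM under chilling. DREB1A, DREB1B and DREB1H are related genes that stand side by side, and no source used here says how reads fitting more than 1 of them were counted.

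The WRKY list had 4 members, of which 2 were higher and none lower; its median was 1.84, and 0.72 over 16 genes when those of unchecked name were counted too. WRKY76, a repressor of defence genes that has been linked to cold tolerance in rice, had 7.70 RPKM in chilled Nipponbare and 101 in chilled 93-11, with 1.77 and 2.09 RPKM in untreated Nipponbare and 93-11. The ratio of WRKY76 was 3.71 (3.48 to 3.95). Its neighbour and relative WRKY62 had 2.21 and 18.4 RPKM under chilling. WRKY71 and WRKY24 passed without a call, at log2 ratios of 0.65 and -0.54.

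Stress NAC factors went both ways: of 6 members, 2 were higher and 1 lower, with a median of -0.03. NAC3 had 168 RPKM in chilled Nipponbare and 728 in chilled 93-11, against 1.98 and 5.11 untreated. NAC2 was higher as well, at 15.4 and 47.5 RPKM. NAC4, which has been tied to cell death in the defence response, was lower in chilled 93-11 with 74.2 RPKM against 236. Its untreated levels were 0.876 RPKM in Nipponbare and 1.17 in 93-11. NAC6 and NAC5, of high level in both chilled libraries, had ratios of -0.34 and 0.28.

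The MYB, zinc finger and bHLH list held 6 genes of checked name and no call (median -0.08). No zinc finger gene was among these 6. With genes of unchecked name counted too, 1 was higher and 0 were lower of 13. MYB4 had 121 and 126 RPKM in chilled Nipponbare and 93-11, and MYBS3 had 366 and 535. Under scaling to the reference genes MYB2 gained a higher call, at a ratio of 1.53. Of 10 genes for signalling kinases and oxidases, CIPK3, a calcium sensor-dependent kinase, was higher on 53 reads against 9 and none was lower (median 0.29). CPK13, a calcium-dependent protein kinase, had 676 and 771 RPKM in the chilled libraries.

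**Figure D2:**
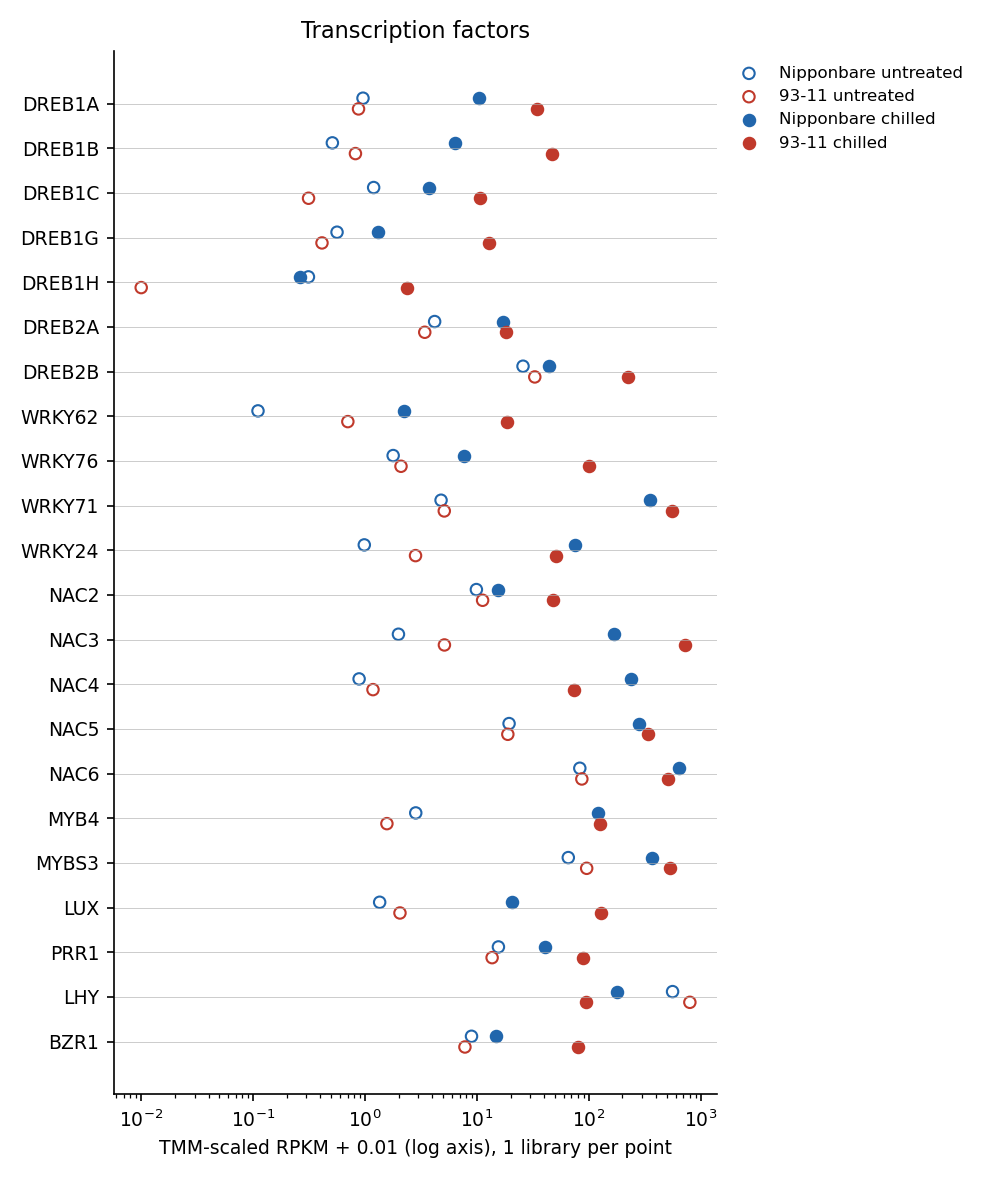
Levels of 22 transcription factor genes in the 4 libraries (TMM-scaled RPKM plus 0.01, log axis; 1 library per point, so no error bars; filled points are chilled and open points untreated). WRKY76 sits at 101 in chilled 93-11 and 7.70 in chilled Nipponbare, while NAC4 shows the opposite order at 74.2 and 236.

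Hormone genes showed single members with large differences and medians near 0. Of 24 abscisic acid genes that passed, 1 was higher and 3 were lower (median -0.24). ABA8ox1, an 8'-hydroxylase that breaks abscisic acid down, had 28.0 RPKM in chilled Nipponbare and 204 in chilled 93-11, with 1.60 and 7.31 RPKM untreated. Its paralogue ABA8ox2 was lower, at 6.87 and 1.71 RPKM under chilling and 7.51 and 8.13 RPKM without it. The kinase gene SAPK1 had 50.7 RPKM in chilled Nipponbare and 17.0 in chilled 93-11. For bZIP23, an activator of abscisic acid responses, the levels were 73.7 and 29.6; its call was lost under scaling to the reference genes, at -1.10. NCED3, for the cleavage step of abscisic acid synthesis, was not called at a ratio of -0.97 (-1.18 to -0.76).

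Among 23 jasmonate genes 1 was higher and 1 lower (median -0.14). With genes of unchecked name counted too, 1 was higher and 2 were lower of 27. The further lower one, LOC_Os12g37260, had 2351 reads in chilled Nipponbare and 2 in chilled 93-11, and 824 and 4 untreated. OPR1, a 12-oxophytodienoate reductase family member, had 39.3 and 182 RPKM in chilled Nipponbare and 93-11, and 2.3 and 2.06 RPKM untreated. CM-LOX2, a chloroplast lipoxygenase gene, was lower in chilled 93-11 with 18.7 RPKM against 75.1. Its tandem neighbour CM-LOX1 had 43.0 against 80.6 RPKM, a ratio of -0.91 that was not called. The 12 TIFY (JAZ) repressor genes of the list held no call, though their ratios varied. TIFY9 had the lowest ratio of the jasmonate genes of checked name, -2.78, and gained a lower call with values as deposited, at -2.84. TIFY11B, at a ratio of 0.99, gained a higher call under scaling to the reference genes. TIFY10B, of the highest level among the 12 in chilled Nipponbare, had 281 and 256 RPKM.

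Of 11 gibberellin and brassinosteroid genes, BZR1 and BAK1 were higher and none was lower (median 0.18). BZR1, a transcription factor of brassinosteroid signalling, had 14.8 RPKM in chilled Nipponbare and 79.7 in chilled 93-11, against 8.94 and 7.81 untreated. BAK1, a co-receptor kinase, was higher in both conditions: 16.5 and 41.3 RPKM under chilling, 9.96 and 23.7 without. In the ethylene and cytokinin list of 15 genes, 2 were lower and none higher (median 0.25). EIL1, a transcription factor of ethylene signalling, was nearly unread in 93-11, with 4 reads chilled and 2 untreated, against 216 and 117 in Nipponbare. RR2, a type-A cytokinin response regulator, had 11.7 RPKM in chilled Nipponbare and 3.22 in chilled 93-11.

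Among checked names and with TMM scaling, the calls of protective proteins, osmolyte enzymes and antioxidants were on the Nipponbare side. With genes of unchecked name counted too, the trehalose, raffinose and proline list held 1 higher and 1 lower of 12. Of 7 dehydrin, LEA and cold membrane protein genes that passed, 2 were lower in chilled 93-11 and none higher, with a median of -1.03. LEA3-2, a late embryogenesis abundant protein gene, had 250 reads in chilled Nipponbare and 8 in chilled 93-11, and 13 and 21 reads in untreated Nipponbare and 93-11. So chilled Nipponbare stood alone at 14.9 RPKM while the other libraries lay below 1 RPKM. SALT, a mannose-binding lectin gene induced by salt and drought, was lower in 93-11 in both conditions, with 27.6 and 3.46 RPKM chilled and 21.7 and 4.51 RPKM untreated. The dehydrin LIP9 went the other way without a call, at 425 and 589 RPKM. The membrane protein genes Lti6a and Lti6b were not called at ratios of -1.03 and -0.58.

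RINO1, myo-inositol-phosphate synthase, which supplies inositol for raffinose-family sugars and phytate, was the most read of the named genes that were called. It had 40827 reads in chilled Nipponbare and 9825 in chilled 93-11, or 1409 and 366 RPKM, against 112 and 130 RPKM in untreated Nipponbare and 93-11. Its chilled ratio was -1.95 (-1.98 to -1.91) and its untreated ratio 0.22. It was the 1 call among 6 genes of trehalose, raffinose and proline metabolism, whose median was -0.37.

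Antioxidant enzymes gave 3 lower and 0 higher of 16 (median -0.07). APX8, the thylakoid ascorbate peroxidase, had 485 RPKM in chilled Nipponbare and 233 in chilled 93-11, with the reverse order untreated, 289 and 365 RPKM. SODA, manganese superoxide dismutase, had 68.2 and 27.1 RPKM under chilling. APX3 was called on 16 reads against 81. The cytosolic APX1, at 306 and 151 RPKM, had an interval of -1.10 to -0.95 and was not called, and the alternative oxidase AOX1a had 397 and 659 RPKM. Under scaling to the reference genes APX8 and SODA were no longer called, at -0.84 and -1.12. The catalase gene CATB gained a higher call under that scaling, at 1.17, and the median of the antioxidant list became 0.14. Of 16 heat shock factors and chaperones, 2 were higher and 1 lower (median 0.17). HSFC1A had 2.38 and 9.63 RPKM in chilled Nipponbare and 93-11, and HSFA2B 8.32 and 3.04; the call of HSFA2B was lost under scaling to the reference genes, at -1.24. The other higher member was the identifier listed as HSFA2D, whose RefSeq entry also bears the name of the dioxygenase ARD2.

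Starch and sugar genes held 2 higher and 4 lower of 20 (median 0.01), and the transporters and amylases among them split by member. SWEET13, a sucrose exporter gene, had 30.3 RPKM in chilled Nipponbare and 2.80 in chilled 93-11, against 31.6 and 16 untreated. SWEET14, of the same family, was higher in chilled 93-11, at 7.18 RPKM against 1.3. The cell-wall invertase CIN1 had 63.3 and 20.9 RPKM in chilled Nipponbare and 93-11, and the sucrose transporter SUT1 50.6 and 26.5, the latter without a call. SWEET13 and CIN1 were thus lower and SWEET14 higher in chilled 93-11.

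The debranching enzyme gene ISA1 had 26.9 RPKM in chilled Nipponbare and 5.45 in chilled 93-11, and 2.38 RPKM in each untreated library. An unnamed gene with a nearby identifier on the same chromosome, LOC_Os08g40919, had 28999 reads in chilled Nipponbare and 410 in chilled 93-11; it was noticed after its values were seen. Of the amylases, RAmy3D was higher in chilled 93-11, with 478 reads against 82 and 3 and 0 reads untreated in 93-11 and Nipponbare. AMY3B was lower on 4 reads against 46.

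**Figure D3:**
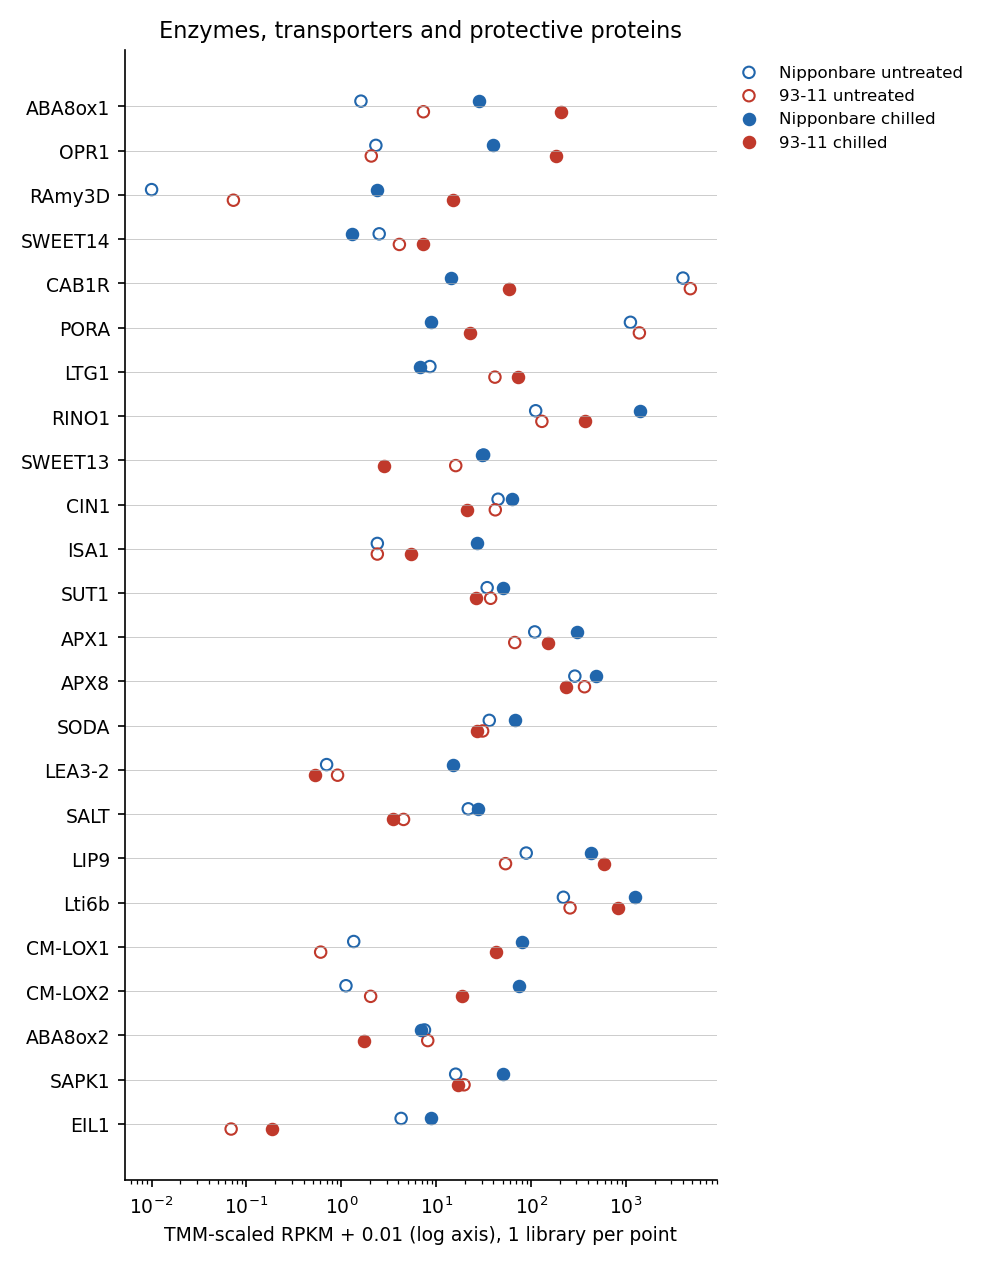
Levels of 24 genes for enzymes, transporters and protective proteins in the 4 libraries (TMM-scaled RPKM plus 0.01, log axis; 1 library per point, so no error bars; filled points are chilled and open points untreated). RINO1 stands at 1409 in chilled Nipponbare and 366 in chilled 93-11, while its untreated points lie together at 112 and 130.

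Among photosynthesis and chlorophyll genes, CAB1R and PORA were higher in chilled 93-11, at levels far below those of the untreated libraries. CAB1R, a light-harvesting chlorophyll-binding protein gene, had 3983 and 4766 RPKM in untreated Nipponbare and 93-11, and 14.3 and 57.8 RPKM in the chilled libraries. Its chilled ratio was 2.01 (1.82 to 2.21). CAB2R, another gene of that family, had 96.7 and 65.1 RPKM under chilling and was not called. CAB1R was the 1 call among 6 light-harvesting and photosystem genes (median -0.12). Of 16 genes for chlorophyll synthesis and breakdown, PORA, protochlorophyllide oxidoreductase, was the 1 higher and none was lower (median 0.15), with 8.86 and 22.5 RPKM chilled against 1113 and 1383 untreated. The 3 Calvin cycle and photorespiration genes, among them RCA, had ratios from -0.45 to -0.21.

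Of 12 clock, photoreceptor and flowering genes, 2 were higher and none lower (median 0.34). LUX, an evening complex component, had 20.6 RPKM in chilled Nipponbare and 129 in chilled 93-11, against 1.34 and 2.04 untreated. PRR1, an evening pseudo-response regulator, had 40.6 and 88.4 RPKM under chilling; its call was lost with values as deposited, at a ratio of 1.07. The morning gene LHY was on the Nipponbare side without a call, at 179 and 94.1 RPKM, and PRR95 on the 93-11 side at 298 and 548. Without chilling LHY had 560 RPKM in Nipponbare and 800 in 93-11.

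The lists of growth and wall genes held at most 1 call in each direction, beside 7.84% higher and 8.78% lower over all genes. Among 15 cellulose synthases and expansins, EXPA4 was higher and CESA9 lower (median 0.08). EXPA4 had 2.33 and 7.54 RPKM in chilled Nipponbare and 93-11, while untreated Nipponbare had 17.6 and untreated 93-11 13.6. CESA9, of the secondary wall complex, had 36 and 16 RPKM chilled and 55.5 and 31.4 untreated, and lost its call under scaling to the reference genes (-0.95). Its partners CESA4 and CESA7 had ratios of -1.0 and -0.62. Of 9 phenylpropanoid and flavonoid genes 1 was lower, 4CL5, on 17 reads against 99 (median -0.57), while the more abundant 4CL4 had a ratio of 0.44 and chalcone synthase CHS1 one of -1.06. The 3 cell division genes that passed had no call, with ratios from -0.32 to 1.5.

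In the defence list of 4 genes the chitinase CHT2 was higher, on 19 reads against 0 (median 0.23). Of 4 diterpenoid genes 1 was higher, with a median of 0.70. That gene was KSL7, a kaurene synthase-like enzyme, with 1 read in chilled Nipponbare and 622 in chilled 93-11, and 3 and 507 reads untreated. KSL7 was therefore nearly unread in Nipponbare in both conditions, at a chilled log2 ratio of 8.81 (6.91 to 14.70).

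Transport genes gave 2 lower and 0 higher of 11 metal, potassium and phosphate genes (median -0.01): HMA2, a zinc and cadmium pump gene, on 28 reads against 139, and NAS2, nicotianamine synthase, on 1 read against 23. The potassium transporter HAK1 had 365 and 726 RPKM and stayed just short of a call at 0.99. The 10 aquaporins (median 0.27), the 6 nitrogen genes (median 0.18) and the single fatty acid desaturase, SSI2 (-0.16), had no call. Chloroplast glutamine synthetase GLN2, the most abundant of the nitrogen genes, had 752 and 408 RPKM in chilled Nipponbare and 93-11. Among the aquaporins PIP2;7 had 381 and 601 RPKM. The 3 reference genes had ratios from -0.55 to 0.12 and no call.

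Of the genes in which japonica and indica rice have been reported to differ, 5 passed and 1 was higher (median 1.05). With genes of unchecked name counted too, 3 of 14 were higher and 2 lower, with a median of 0.06; without a filter on low values the median of the checked names was 0.11. LTG1, a casein kinase gene linked to growth at low temperature, had 6.71 RPKM in chilled Nipponbare and 72.6 in chilled 93-11, and 8.56 and 41.5 untreated. COLD1, a regulator of G-protein signalling tied to chilling tolerance of japonica rice, had 18.4 and 14.8 RPKM under chilling and 13 and 11.9 untreated. COLD1 thus lay close together in the 4 libraries, whereas LTG1 was higher in both 93-11 libraries.

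The untreated pair shares no library with the chilled pair, so each can be read beside the other. Among 20213 genes with at least 1 RPKM in either untreated library, 779 were higher (3.85%) and 1700 lower (8.41%) in 93-11. Of the 1676 genes lower in chilled 93-11, 925 (55.2%) were also lower untreated, while 382 (25.5%) of the 1496 higher ones were also higher untreated. Taken from the untreated side, 46.5% of its higher and 52.2% of its lower calls recurred in the chilled pair. Across the 14217 members with at least 20 reads in each library, the chilled and untreated ratios had a Pearson r of 0.44, a description over genes, which are not independent.

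The interval of the chilled minus the untreated log2 ratio lay wholly beyond 1 log2 unit, in the direction of the chilled call, for 509 higher (2.67%) and 264 lower genes (1.38%). Among the 509, 208 were above their untreated level by size in 93-11 and not in Nipponbare, and 88 in both cultivars. A further 131 were below their untreated level by size in Nipponbare and not in 93-11. Of the 264, 107 were above their untreated level in Nipponbare and not in 93-11, and 69 were below it in 93-11 and not in Nipponbare. A larger difference under chilling could therefore come with a gain in one cultivar or with a loss in the other; the same chilled libraries enter both counts. Of the 50 named genes called in the chilled pair, 24 showed such a larger difference and 7 had the same call untreated. Over all called genes, 34.0% of the higher and 15.8% of the lower ones showed a larger difference. The same call untreated was held by 25.5% of the higher and 55.2% of the lower ones. The named genes were chosen with earlier results of these data known. The 24 were 12 higher and 12 lower genes: WRKY76, BZR1, OPR1, LUX, DREB2B, CAB1R, DREB1C, DREB1G, DREB1H, EXPA4, PRR1 and LSI1 on the 93-11 side, and RINO1, LEA3-2, SWEET13, CIN1, ISA1, AMY3B, APX8, CM-LOX2, ABA8ox2, SAPK1, NAC4 and 4CL5 on the Nipponbare side.

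**Figure D4:**
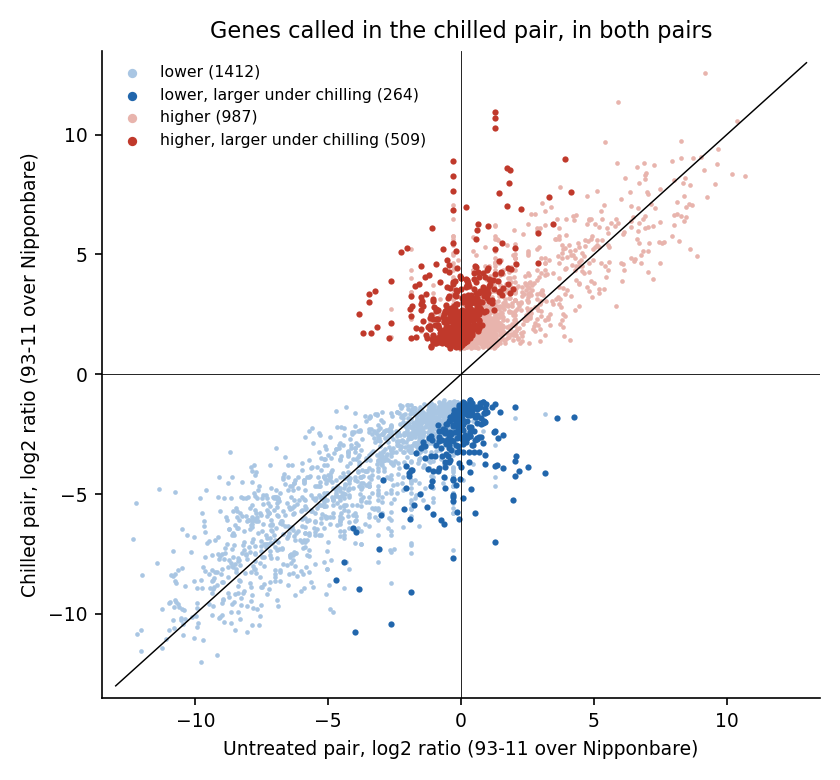
Log2 ratios (93-11 over Nipponbare) of the genes called in the chilled pair: the untreated ratio on the horizontal axis, the chilled ratio on the vertical axis, and the line equal ratios. Dark points are the 509 higher and 264 lower genes whose difference was larger under chilling. They gather near an untreated ratio of 0, but the rule that picks them uses that ratio and so sets their distance from the line. Many pale blue points lie along the line.

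A set of genes was read in one cultivar and not in the other. In chilled 93-11, 250 genes had 0 reads while chilled Nipponbare had at least 50, with a median of 150 and up to 2199 reads. In the untreated 93-11 library 243 of these had at most 3 reads and none had 20 or more; untreated Nipponbare had at least 20 reads for 220 of them. The reverse set, with 0 reads in chilled Nipponbare and at least 50 in chilled 93-11, held 57 genes, with a median of 115 reads. Untreated Nipponbare had at most 3 reads for 54 of them and at least 20 for 2. LOC_Os03g17410 had 0 reads in chilled Nipponbare and 2791 in chilled 93-11, at least 1004-fold higher against a floor of 3 reads per library. Few or no reads for these genes were thus found in both libraries of a cultivar for nearly the whole of each set.

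Among the 10 highest and 10 lowest ratios of genes with at least 100 reads, 1 of the 20 could be named, KSL7. With genes at 0 reads set to the floor of 3 reads, LOC_Os02g40240 had the lowest ratio, with 2989 reads in chilled Nipponbare and 1 in chilled 93-11, and 5718 and 1 untreated. LOC_Os02g08330, among the highest, had 35 reads in chilled Nipponbare and 12895 in chilled 93-11, but 5 and 22 untreated. The first of these differed alike in both conditions and the second mainly under chilling. At the edges of the 1 RPKM rule the nearest genes inside reached 1.00018 and 1.00022 RPKM as deposited, and the nearest outside reached 0.999461. At the edge of the 2-fold rule, a gene just inside had 405 reads in chilled 93-11 against 183, and a gene just outside 103 against 38.

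Calls were unevenly spread over the genome. Chromosome 11 had 16.5% of its 946 genes lower in chilled 93-11 and chromosome 12 had 12.6% of 1039, whereas chromosome 3 had 6.25% of 2592. The share of higher genes ranged from 6.68% on chromosome 7 to 9.92% on chromosome 9. Some calls fell in runs of at least 3 consecutive expressed genes. Of the 1676 lower genes 283 lay in 81 such runs, and of the 1496 higher genes 109 lay in 35. Identifiers of genes below 1 RPKM were skipped, so members need not be adjacent: 1 run of 4 lower genes on chromosome 4 spanned 84 identifiers. The longest runs, each of 6 lower genes, lay on chromosomes 1, 2 and 11. On chromosome 1 the 6 genes had 10 to 4042 reads in chilled Nipponbare and 0 to 55 in chilled 93-11, and each of the 6 was also lower untreated. On chromosome 11 the reads ran from 52 to 526 and from 0 to 8, again with 6 of 6 lower untreated; on chromosome 2, with 25 to 1989 against 0 to 37 reads, 3 of 6 were. Positions were taken from the order of the gene identifiers.

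**Figure D5:**
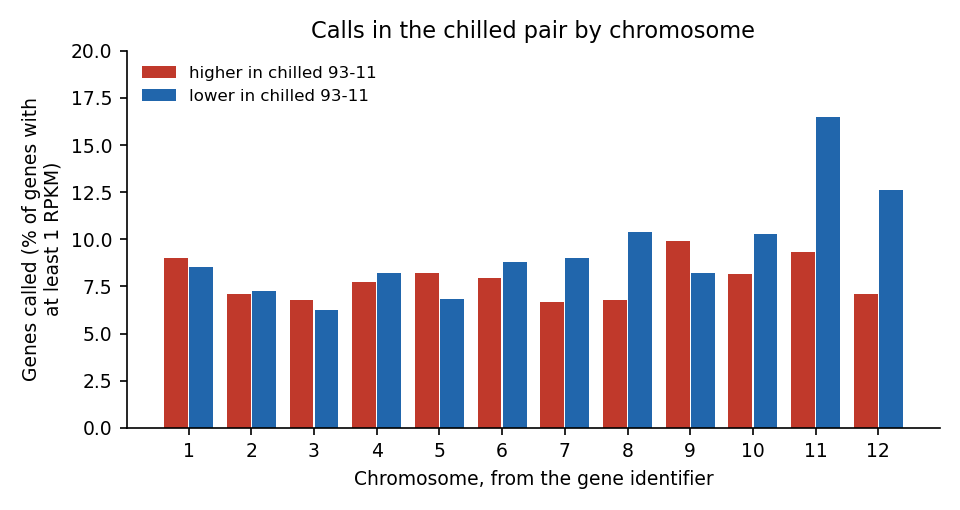
Percent of genes with at least 1 RPKM that were higher (red) or lower (blue) by size in chilled 93-11, by chromosome; there are no error bars because each pair is 1 library against 1. The lower calls stand at 16.5% on chromosome 11 and 12.6% on chromosome 12, above the 8.78% over all genes.

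A cultivar difference common to both conditions was tested with limma over the 4 libraries, with treatment as a further term and 1 residual degree of freedom. At a Benjamini-Hochberg adjusted p under 0.05 it called 305 genes higher (1.57%) and 762 lower (3.91%) in 93-11, of 19466 tested. Of the 50 named genes called in the chilled pair, 44 were tested and 8 passed. KSL7 had a fitted difference of 4.17 ± 0.34 log2 units (SE) and an adjusted p of 0.0079 (limma, on log2(RPKM + 1)). LTG1, ABA8ox1, BAK1 and CHT2 were the other higher ones, and EIL1, SALT and RR2 the lower ones, with limma adjusted p from 0.015 to 0.049. Each of the 8 lay on the same side in the chilled and in the untreated pair. The fit selects for this, because its error is the disagreement between the 2 conditions, so it is no separate result. The DREB, WRKY and NAC genes named above did not pass; NAC3 came nearest at an adjusted p of 0.058 (limma). Without the treatment term limma called 0 genes, with 341 higher and 885 lower at an unadjusted p under 0.05.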

How the data were processed

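mRNA of 4 rice libraries was sequenced by the authors, 1 per cultivar and treatment. The deposited files give 1 value per gene that behaves as RPKM, a unit read from the values. The submitters' processing notes list HTSeq 0.5.4p3, Bowtie2 2.0.6 and TopHat2 2.0.9 with no role for any of them. No source used here gives the genome build, annotation, strand setting or handling of reads that fit several genes; reads of both cultivars counted on 1 list of genes can be missed where a cultivar differs from it, and this was not tested.

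RPKM steps gave library totals and gene lengths, and 36941 of 36941 genes above 0 turned into whole reads (relative tolerance 1e-09); with totals shifted by 1 or 2 percent, 1 to 6 of 500 did. The 2 chilled libraries held 13231465 reads (Nipponbare) and 12770395 reads (93-11). Ratios used TMM scaling (trims 0.3 and 0.05), 0.5 reads added for the point estimate and exact 95% intervals; a fold against 0 reads was bounded at 3 reads. The intervals of the chilled minus untreated difference were Wald intervals. The cultivar term was fitted with limma 3.58.1 on log2(RPKM + 1), for genes with 1 RPKM in at least 2 libraries. Scripts ran in Python 3.11.15 and R 4.3.3 and were tested on simulated data.

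Symbols written from general knowledge were kept where RefSeq (assembly ASM3414082v1) had that symbol within 700 kb of the place expected from the identifier order: 353 of 555. In each of 31 lists the called members were named, and otherwise members of high level. The members and lists were chosen with earlier results of these data known. Sequences were not used here. Alternatives were other scalings, filters, call rules, pseudocounts and limma settings.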

Additional observations from a re-analysis of the deposited data

Results flagged for a closer look

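A few genes differed between the cultivars in opposite directions in the 2 conditions. By size, 10 genes were higher in chilled 93-11 and lower in untreated 93-11, and 9 were lower chilled and higher untreated; with 1 library per group the difference was not tested over samples. For 7 named genes that were called in the chilled pair, the untreated ratio had the opposite sign with an interval that did not reach 0. The chilled minus untreated log2 ratio was 3.41 for DREB1C, 2.06 for EXPA4 and 1.31 for PRR1. It was -1.39 for APX8, -2.16 for RINO1, -1.87 for SAPK1 and -2.86 for CM-LOX2.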

How the results depend on the processing

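Upper quartile scaling and values as deposited kept the counts within 1.5 times. A minimum of 5 RPKM left 930 higher and 989 lower genes in the chilled pair, of which 197 and 513 had the same call untreated. Calling on the point estimate gave 2856 higher and 2744 lower, with 870 and 1562 also called untreated. With the whole interval beyond 4-fold there were 489 higher and 897 lower, with 167 and 585 also called untreated. The construction of these alternatives, stricter or looser rules, changes the counts. Genes with 0 reads in chilled 93-11 numbered 437 at a minimum of 20 reads and 399 when up to 3 reads were allowed, and the reverse set 132 and 126. limma without a filter on low values called 107 higher and 342 lower of 36941, and the cause was not tested. Without the treatment term limma called 0 and 0 (341 and 885 at an unadjusted p under 0.05). By construction that fit leaves the difference between treatments in its error. Scaling to the reference genes moves the median of all genes by 0.21; under it the median of the chlorophyll list became 0.36 and that of the Calvin cycle list -0.025, the other 26 list medians with at least 3 genes stayed within their 95% interval, and 7 medians near 0 changed sign (MYB and bHLH factors, antioxidants, jasmonate, light harvesting, metals, reference genes and NAC factors). The medians of the DREB, WRKY and LEA lists kept their sign under each scaling. Counting genes of unchecked name as well, an alternative added after the data were seen, kept 23 of 23 medians within their interval. Among the 280 named genes no called ratio changed sign; scaling to the reference genes ended 5 calls (APX8, SODA, bZIP23, HSFA2B and CESA9) and added 10, and values as deposited ended that of PRR1 and added 3. No paired analysis was possible because each group holds 1 library. Depth limits genes with under 100 reads, whose intervals are wide.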

Other observations

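The most read genes with a call were mostly without a checked name, RINO1 being the 1 named among the 10. Reads were concentrated alike in the chilled libraries: the 10 most read genes took 4.67% of the reads in each. At least 1 RPKM was reached in both chilled libraries by 15451 genes, in Nipponbare alone by 1985 and in 93-11 alone by 1650. When the genes of the lists whose names were not checked are counted too, without names, the WRKY list held 6 higher and 0 lower of 16, and the DREB list 7 higher and 0 lower of 8. The light-harvesting and photosystem list then held 1 higher and 0 lower of 25, with a median of -0.31, and the Calvin cycle and photorespiration list 0 of 13 in either direction, with a median of -0.43. Counted in the same way, the nitrogen list held 1 higher and 2 lower of 11, and the defence list 4 higher and 1 lower of 11.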
